A study of Mus musculus with 3 samples.

Results

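The genes described here carry copper into, through and out of mouse cells or bind it in the cytosol. The 10 are Atp7a, Atp7b, Slc31a1, Slc31a2, Atox1, Ccs, Cox17, Sco1, Mt1 and Mt2. They were listed by name and selected on the basis of earlier values from this same contrast, so their ratios are given as a description and not as a test. All 10 were found among the 30397 genes of the array, with 15 of its 39429 probes, 1 spot each. All 10 genes, with 13 of the 15 probes, passed the filter on dim probes, as did 20389 genes and 26317 probes of the whole array.

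RNA came from mouse embryoid bodies. These are clumps that embryonic stem cells form in suspension, where they start to differentiate into tissues of all germ layers when the cytokine LIF is absent. After 10 days in low attachment plates, wild-type embryoid bodies were compared with embryoid bodies labelled Dido3deltaCT+HADido3CT, called mutant+CT here. Their Dido3, a product of the gene Dido1, is truncated at its C terminus, and they also overexpress the missing terminal piece. On each of 3 Agilent arrays with 2 colours, RNA of 1 wild-type sample was set against RNA of 1 mutant+CT sample, and the labels call the replicates biological. Cy5 marked the wild type on replicates 1 and 3, and the dyes were swapped on replicate 2. No sample with the truncation alone or the added piece alone was analysed here, so their effects cannot be told apart. The promoter of the construct and the number of clones are not given in the sources used here.

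Copper enters cells through Slc31a1, the high-affinity importer also called CTR1, and small chaperones then hand it on so that little of it is ever free. Atox1 delivers copper to Atp7a and Atp7b, P-type ATPases that load copper enzymes in the Golgi and export the excess, and whose human counterparts are mutated in Menkes and Wilson disease. Ccs loads the superoxide dismutase Sod1, and Cox17 and Sco1 serve cytochrome c oxidase in mitochondria. Metallothioneins, here Mt1 and Mt2, are small cysteine-rich proteins that bind zinc and copper, and the factor Mtf1 activates their genes through metal response elements. Mt1 and Mt2 are known to be strongly expressed in visceral yolk sac endoderm and fetal liver.

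Atp7a stood apart from the other 9 genes. Its signal was higher in mutant+CT on every array, and its mean log2 ratio, taken as mutant+CT over wild type throughout, was 3.57 ± 0.57 (SD, n = 3 arrays), an 11.9-fold difference. Mt2 had a mean log2 ratio of 1.42 ± 0.98, Mt1 of 1.12 ± 0.67 and Atox1 of 0.62 ± 0.0043, all higher on every array. Slc31a1 was lower on every array, with a mean of -0.71 ± 0.49. The other 5 genes changed sign between arrays.

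The probe letters help to judge what each of these signals reads, because an array signal comes from the short stretch that the probe matches. The first 30 of the 60 bases of the probes for Atp7a, Mt1 and Mt2 are shown because these genes had the highest mean ratios of the 10. For Cox17 the 30 bases richest in A and T are shown because its signals followed the dye, as described further on. All are in lower case, 5′ to 3′, as in the scanner files.
Atp7a probe A_51_P312497: gaagatgatgacaccacactgtaaaaagcc
Mt1 probe A_66_P111660: cctgtttactaaacccccgttttctaccga
Mt2 probe A_51_P246317: agaagcctagccttttttgtacaaccctga
Cox17 probe A_55_P2036967: ataaatggataaagtatttataatttatta
The longest run that the whole Mt1 probe A_66_P111660 and the Mt2 probe shared was 7 bases. No probe of the 10 genes shared a run of 20 bases with a probe of another gene on the array. In the files' mm9 positions, the Atp7a probe lies at chrX:103319931-103319990 on the plus strand, that of Mt1 at chr8:96704165-96704224, that of Mt2 at chr8:96697371-96697430 and that of Cox17 at chr16:38352772-38352831. No mm9 annotation was used here, so the place of a probe within its gene's exons was not determined.

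Promoters of 8 of the 10 genes matched RefSeq's promoter table for GRCm38.p6. Those of the neighbouring genes Mt1 and Mt2 are printed because both genes had higher signals in mutant+CT on every array. The 250 bases before each start are given, with matches to the core of the metal response element in capitals. The letters searched were TGCACNC and TGCGCNC, on both strands and with overlaps counted.
Mt1 at chr8:94178839-94179088, plus strand: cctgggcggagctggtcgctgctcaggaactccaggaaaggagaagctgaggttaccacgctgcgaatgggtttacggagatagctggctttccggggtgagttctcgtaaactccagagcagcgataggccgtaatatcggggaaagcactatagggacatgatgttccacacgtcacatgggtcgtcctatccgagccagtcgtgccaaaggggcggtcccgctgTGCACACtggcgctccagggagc
Mt2 at chr8:94172368-94172617, plus strand: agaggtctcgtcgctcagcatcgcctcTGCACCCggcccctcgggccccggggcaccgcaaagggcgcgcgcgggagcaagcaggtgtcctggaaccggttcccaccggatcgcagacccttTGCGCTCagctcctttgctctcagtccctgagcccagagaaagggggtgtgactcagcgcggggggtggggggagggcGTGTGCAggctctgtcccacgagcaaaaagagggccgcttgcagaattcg
Counting also the 50 bases after the start, the Mt2 window held 4 matches and the Mt1 window 3. Atp7a held 2, Atp7b and Slc31a2 held 1 each, and Slc31a1, Atox1 and Sco1 held none. Of the 32851 promoters of that length in the table, 25.7% held at least 1 match, 1.97% held 3 or more and 0.517% held 4 or more. A match of letters describes the sequence only and does not show that a factor binds there. The printed stretches depend on the start that RefSeq gives. Before that start lie 1 of the 3 Mt1 matches and 3 of the 4 Mt2 matches. Other starts and bases outside the window were not searched, so the 2 genes are not ranked by these counts.

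Atp7a was read by 1 probe. Its spot mean signal, in scanner units before normalization, was 179, 278 and 385 in wild type and 3539, 4021 and 2655 in mutant+CT on replicates 1, 2 and 3. All 3 mutant+CT signals lay above all 3 wild-type signals, and in both RNAs the spot was well above its local background of 35 to 43 on every array. The log2 ratios, after background correction and normalization of the dyes, were 3.82, 3.97 and 2.92. The array with swapped dyes gave the highest of the 3, so the difference was present in both dye orientations. Atp7a had the 10th highest mean ratio of the 20389 genes, with 0.0490% of genes at or above it.

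Atp7b, the ATPase best known from liver, showed no such difference. Its signals were 161, 286 and 319 in wild type and 274, 386 and 239 in mutant+CT, and the groups overlapped. Replicates 1 and 2 had log2 ratios of 0.20 and 0.47 and replicate 3 of -0.47, for a mean of 0.07 ± 0.49.

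**Figure D1:**
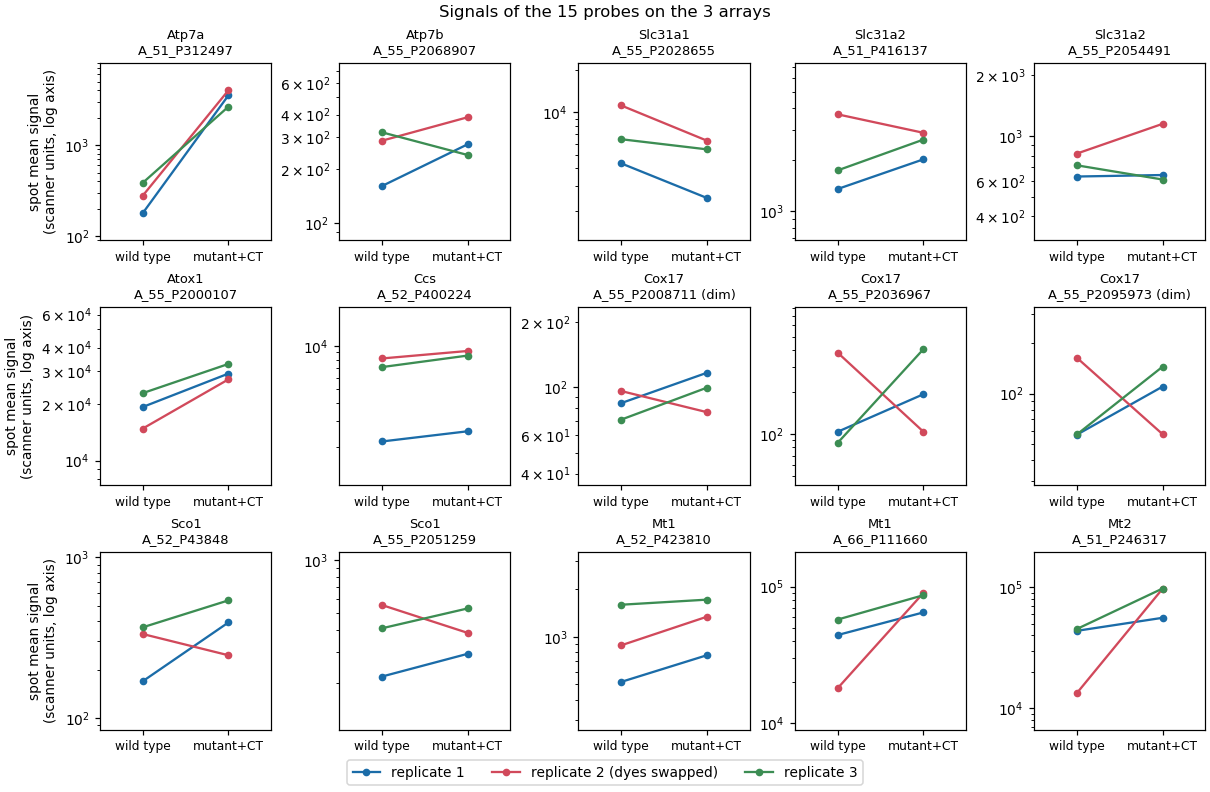
Spot mean signals (scanner units, log axis with its own range in each panel) of the 15 probes in wild type and mutant+CT, with a line joining the 2 RNAs of an array. Probes marked dim did not pass the filter. The Atp7a lines all climb steeply, from 179 to 3539 on replicate 1, while the lines of the Cox17 probe A_55_P2036967 cross because replicate 2 runs the other way.

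The metallothioneins were the next genes by ratio. Mt1, by its brightest probe, had signals of 44283, 18049 and 57462 in wild type and 64791, 89607 and 86526 in mutant+CT. Its log2 ratios were 0.73, 1.90 and 0.74, a mean of 1.12 ± 0.67 or 2.18-fold. The mutant+CT signals all lay above the wild-type ones. The wild-type sample of replicate 2 gave the lowest signal of the 6 and that array the highest ratio.

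Mt2 gave signals of 43659, 13390 and 45212 in wild type and 55906, 97092 and 97495 in mutant+CT, again without overlap. Its log2 ratios were 0.53, 2.47 and 1.25, a mean of 1.42 ± 0.98 or 2.67-fold. As for Mt1, the low wild-type signal of replicate 2 went with the highest ratio. Without replicate 2 the mean log2 ratio was 0.74 for Mt1 and 0.89 for Mt2, over the 2 arrays that share a dye orientation. Larger absolute mean ratios than that of Mt2 were seen for 4.65% of all genes.

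A second Mt1 probe, A_52_P423810, gave a smaller difference. It had log2 ratios of 0.14, 0.69 and 0.24, a mean of 0.36 ± 0.29. The direction was the same on every array and replicate 2 was again the highest, but the probes disagreed on size. The Mt1 probes shared no run longer than 5 bases.

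Atox1, the chaperone that passes copper to Atp7a and Atp7b, had signals of 19308, 14815 and 22889 in wild type and 29095, 27101 and 32756 in mutant+CT. Every mutant+CT signal was above every wild-type signal. The log2 ratios of 0.615, 0.617 and 0.624 were nearly equal, for a mean 1.54-fold difference. The spread over arrays of a typical gene was far wider, with a median SD of 0.44. The near equality is one of normalized ratios, since the signals above do not stand in equal ratios on the 3 arrays. An SD over 3 arrays is itself imprecise. By limma's moderated test, described further on, the adjusted p of Atox1 over all genes was 0.258.

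Slc31a1, the importer, ran the other way. Wild-type signals were 4349, 11176 and 6445 and mutant+CT signals 2476, 6301 and 5465. On each array the mutant+CT signal was the lower one, but over the 3 arrays the groups overlapped. Log2 ratios were -1.09, -0.89 and -0.16, so replicate 3 showed the smallest difference.

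Slc31a2, a related membrane protein that affects how copper is released from vesicles, was read by 2 probes that did not share a pattern. By the brighter, A_51_P416137, wild type had signals of 1349, 3698 and 1735 and mutant+CT of 2013, 2884 and 2626, with log2 ratios of 0.25, -0.30 and 0.73. By the other, A_55_P2054491, log2 ratios were -0.40, 0.57 and -0.13. Neither probe held 1 sign on all arrays, and where one was above 0 the other was below.

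**Figure D2:**
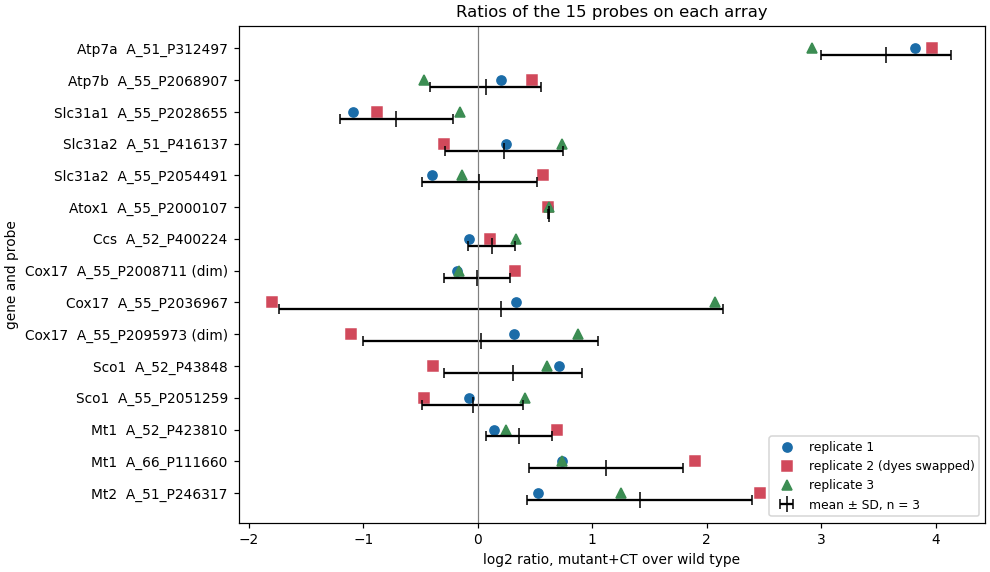
Log2 ratios (mutant+CT over wild type) of the 15 probes on each array (blue circle, red square and green triangle for replicates 1 to 3) with mean ± SD over the 3 arrays in black. Atp7a stands to the right of the rest at 3.57, the Atox1 points coincide at 0.62, and the Cox17 probe A_55_P2036967 spans -1.79 to 2.08.

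Ccs, the chaperone of Sod1, had signals of 2181, 8183 and 7132 in wild type and 2565, 9218 and 8566 in mutant+CT. The arrays differed more than the groups did, and log2 ratios were -0.07, 0.11 and 0.34, a mean of 0.12 ± 0.20. Sco1, which helps insert copper into cytochrome c oxidase, had log2 ratios of -0.07, -0.47 and 0.41 by its brightest probe, A_55_P2051259, and of 0.71, -0.39 and 0.60 by A_52_P43848. Replicate 2 was the lowest for both Sco1 probes, and both means, -0.04 ± 0.44 and 0.31 ± 0.61, were smaller than their SD.

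Cox17, the mitochondrial copper chaperone, gave values that split the same way by dye on every array and not by genotype. On its kept probe, A_55_P2036967, wild type had signals of 104, 384 and 86 and mutant+CT of 192, 104 and 404. Read by dye, Cy3 gave 192, 384 and 404 and Cy5 gave 104, 104 and 86, so Cy3 was the brighter on every array whichever RNA it carried. Turned by genotype, the log2 ratios were therefore 0.33, -1.79 and 2.08, a mean of 0.21 ± 1.94. A mean over 1 swapped and 2 unswapped arrays does not balance such a difference. Only replicate 2 had swapped dyes, so a dye difference and a difference of that replicate's samples cannot be told apart.

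A second Cox17 probe, A_55_P2095973, overlaps the first by 46 bases and behaved alike. Its log2 ratios of Cy3 over Cy5 were 0.31, 1.11 and 0.88. It is 80% A and T, and the kept probe 78.3%, a share that 0.304% and 0.492% of the array's probes reach. Whether base composition has a part in the dye difference was not tested. The third probe, A_55_P2008711, with 48.3% A and T, ran the other way between dyes, at -0.19, -0.32 and -0.17. Both of these further probes were dim and did not pass the filter, so the kept probe, with its split by dye, is the only reading of Cox17.

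Over all genes, 16.4% had normalized Cy3 above Cy5 on every array and 17.1% had the reverse. Of the 10 genes, Cox17 and Slc31a2 were in the first set and none was in the second. The Slc31a2 probes, which disagreed by genotype, each held 1 sign by dye. The log2 ratios of Cy3 over Cy5 were 0.25, 0.30 and 0.73 for A_51_P416137 and -0.40, -0.57 and -0.13 for A_55_P2054491. The Sco1 probe A_52_P43848 likewise had Cy3 above Cy5 on every array, at 0.71, 0.39 and 0.60.

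**Figure D3:**
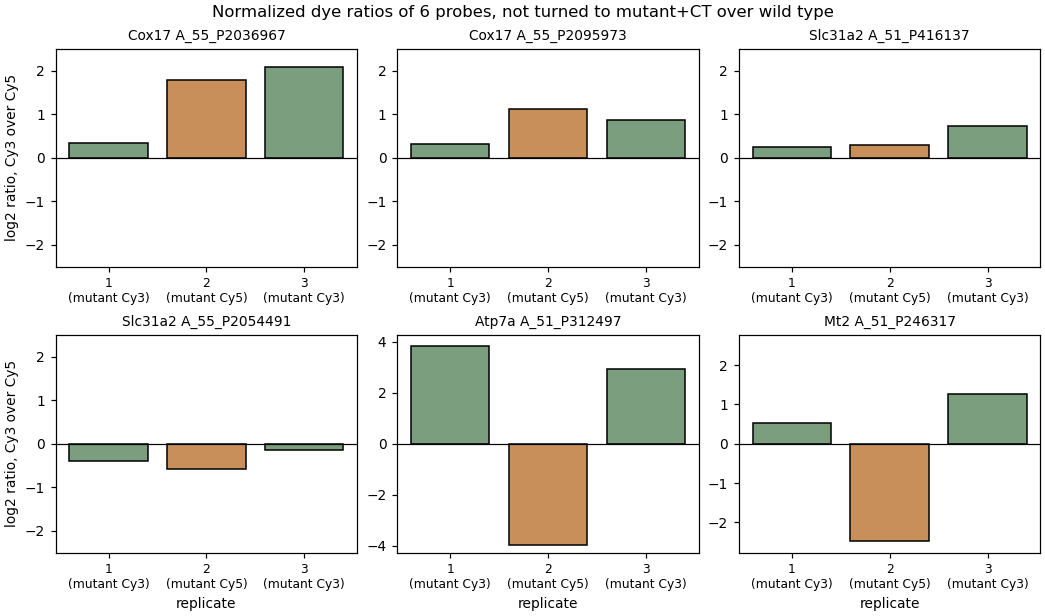
Normalized log2 ratios of Cy3 over Cy5 on each array for 6 probes, with replicate 2 (dyes swapped) in orange; axes differ between panels. The Cox17 bars stay above 0 on all arrays, at 0.33, 1.79 and 2.08 for A_55_P2036967, while those of Atp7a and Mt2 turn over on replicate 2, to -3.97 and -2.47.

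Counts over all genes give the frame for these values. By limma's moderated test, with p-values adjusted after Benjamini and Hochberg, 0 of 20389 genes (0%) passed at 0.05, and so 0 of the 10. The smallest adjusted p over all genes was 0.0734, and 3211 genes (15.7%) had an unadjusted p under 0.05. Over single probes 115 of 26317 (0.437%) passed, and the Atp7a probe was the only one of the 13 to do so. That probe did not pass without background subtraction, with no filter on dim probes, with a dye term, or without replicate 2 or replicate 3. Atp7a was at least 2-fold higher on every array, as were 387 genes (1.9%), and none of the 10 was at least 2-fold lower on every array, as 202 genes (0.991%) were.

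Being higher on every array at any size was common, at 4141 genes (20.3%), and held for 4 of the 10. Being lower on every array held for 3554 genes (17.4%) and for 1 of the 10, Slc31a1. All mutant+CT signals were above all wild-type signals for 2103 genes (10.3%) and for Atp7a, Atox1, Mt1 and Mt2. They were below for 752 genes (3.69%) and for none of the 10. The median log2 ratio was 0.22 over the 10 and 0.00 over all genes, and 0.55 over the 10 without replicate 2. Because the genes were chosen on this contrast, nothing is read from how their counts compare with these shares.

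The series as a whole showed wide differences between arrays. Between 68.1% and 78.5% of spots in a channel were well above background and no spot was saturated. Across genes, which are not independent, the log2 ratios correlated at 0.54 between replicates 1 and 3, 0.38 between 2 and 3 and 0.18 between 1 and 2 (Pearson). The pair with the highest value shares a dye orientation. The 4 Dido1 probes, read over all probes, had mean log2 ratios of 1.79, -2.39, 3.53 and 0.77. Of these the probe at 3.53 passed. Which part of the gene each probe reads was not determined, so they are a limited check of the labels.

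Embryoid bodies hold many cell types, and in bulk RNA fewer cells of a type cannot be told apart from less RNA per cell. Markers of visceral endoderm, the tissue known for strong metallothionein expression, were therefore read beside the 10 genes. Of the 11 measured markers of 12, 8 were higher and 1 lower in mutant+CT on every array. For comparison, 20.3% of all genes had only ratios above 0, and 17.4% only ratios below it. The 8 include Ttr, at 0.02 on replicate 3, and Apob, at 3.08, 0.11 and 0.20 on replicates 1 to 3. The median log2 ratio of the 11 was 1.10, and none of them was called. The summed signal of the 11 markers, before normalization, was 55098, 194880 and 114289 in wild type on replicates 1 to 3. In mutant+CT it was 168127, 443090 and 156810. It was thus higher in mutant+CT on each array, but over the 3 arrays the groups overlapped. The highest ratios were those of Trf, the plasma iron carrier transferrin, at 2.24 ± 1.09, and Apoa1, an apolipoprotein, at 2.12 ± 0.58. The lowest were those of the endoderm factors Foxa2, at -0.60 ± 0.85, and Sox17, at -0.77 ± 0.36. Alb, encoding albumin, did not pass the filter.

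Values on each array are given for these markers and for the metallothioneins, and no relation between them was tested. The visceral endoderm median was 1.62, 0.90 and 0.63 on replicates 1 to 3. Mt2 had 0.53, 2.47 and 1.25 and Mt1 0.73, 1.90 and 0.74 on the same arrays. Pluripotency markers had a median of 1.17, with 5 of 8 higher on every array (20.3% of all genes). Neural progenitor markers had a median of -3.15, with 5 of 6 lower on every array (17.4% of all genes). Trophoblast markers, of which Tpbpa did not pass the filter, had a median of 1.14, with 3 of 5 higher (20.3% of all genes). The part of cell composition in the Atp7a, Mt1, Mt2 and Atox1 values was not tested.

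Markers of mesoderm-derived cells varied between arrays. As a frame for the counts below, 20.3% of all genes had only ratios above 0, and 17.4% only ratios below it. Cardiomyocyte markers had median log2 ratios of 3.79, -0.49 and -0.49 on replicates 1 to 3, with 1 of 6 higher and 0 lower on every array. Mesenchyme markers had 3.30, -1.86 and 0.09 (0 of 5 higher and 1 lower) and endothelium markers 1.24, -1.15 and -1.21 (1 of 4 higher and 0 lower). The erythroid median was below 0 on all 3 arrays, at -0.71, -3.18 and -4.12, with 0 of 5 higher and 2 lower. Over the 3 arrays it was -2.23, against -3.65 without replicate 1 and -1.28 without replicate 3. Neuron markers had a median of -1.16, with 1 of 5 higher and 3 lower on every array. Of the 3, Dcx passed the filter through wild type alone, the group where its signal was higher. With the filter in both channels 4 neuron markers were kept, 1 higher and 2 lower, with a median of -0.71. Atp7a had 3.82, 3.97 and 2.92 on the same arrays, and its relation to these markers was not tested.

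Genes that work beside the 10 were then counted. No gene passed the adjusted test in any of the lists that follow, since none did on the array, so the counts are of direction and of unadjusted p-values. Of the whole array, 20.3% of genes lay above 0 and 17.4% below 0 on all 3 arrays, and 15.7% had an unadjusted p under 0.05. Their members were listed from textbook roles, with the results of the 10 genes already known.

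Other genes of copper handling moved in no common direction, with 4 of 19 higher and 4 lower on every array and a median log2 ratio of -0.03. At an unadjusted p under 0.05, limma counted 4 of them, where 15.7% of all genes passed. Steap1, of a family of metalloreductases, had 1.08 ± 0.43 and Slc11a2, a divalent metal importer, 0.92 ± 1.07 by its brightest probe. A second Slc11a2 probe had a mean of -0.03, so its probes disagreed. The lowest were App, the amyloid precursor protein, which binds copper, at -0.72 ± 0.58, and Ccdc22, a part of the COMMD complex that sorts Atp7a in endosomes, at -0.90 ± 0.75.

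Assembly factors of cytochrome c oxidase, the mitochondrial enzyme that Cox17 and Sco1 serve, had a median of -0.06, with 3 of 19 higher and 4 lower on every array and 2 at an unadjusted p under 0.05 (15.7% of all genes). Lrpprc, which stabilises mitochondrial mRNAs, had 0.85 ± 0.53 and Cox18 0.57 ± 1.40. Sco2, the paralogue of Sco1, had -0.79 ± 0.99 and Surf1 -0.83 ± 0.34. Only for Lrpprc and Surf1 among these 4 did all arrays share a sign.

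Copper-dependent enzymes and other copper-binding proteins, many of which receive copper from Atp7a in the Golgi, had mean log2 ratios from -1.86 to 1.51. Of 17, 5 were higher and 4 lower on every array, the median was 0.09, and 4 had an unadjusted p under 0.05. Over all genes the shares were 20.3%, 17.4% and 15.7%. Lox, which crosslinks collagen, had the highest mean, 1.51, but an SD of 2.89, with log2 ratios of 1.26, -1.24 and 4.52. Aoc2, an amine oxidase, had 0.70 ± 0.41. The ferroxidases Cp and Heph, which oxidise exported iron, had the lowest means, -1.86 ± 1.15 and -1.73 ± 1.04, and both were lower on every array. Cp passed the filter through wild type alone, the group where its signal was higher. F8 and Aoc1, both among the 5 higher, passed it through mutant+CT alone. With the filter in both channels the list held 14 genes, with 3 higher, 3 lower and a median of 0.01.

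A pair of enzymes outside the naming rule was picked after the values were seen. Loxl2, a relative of Lox, was the one gene of the list at least 2-fold lower on every array, at -1.85, -1.06 and -2.10. The same held for 0.991% of all genes. Sod1, the enzyme that Ccs loads, had 0.42, 0.42 and 0.70, higher on every array, where Ccs itself changed sign.

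Zinc transporters and further metallothionein genes centred on 0. Of 24, 5 were higher and 6 lower on every array, the median was 0.00, and 2 had an unadjusted p under 0.05 (15.7% of all genes). Mtf1, the factor that switches on Mt1 and Mt2 in response to zinc, had 0.63 ± 0.29 by its brightest probe, but its other probes had means of 0.01 and -0.67, so no direction is given for it. The lowest were the zinc importers Slc39a10, at -0.66 ± 0.52, and Slc39a7, at -0.91 ± 0.90.

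The other metallothionein genes of the cluster lie within 50 kb of Mt1 by probe position. Mt4, best known from stratified epithelia, had log2 ratios of 0.25, 0.70 and 1.84, a mean of 0.93 ± 0.82. Mt3, best known from brain, had -0.46, 0.18 and -0.54, a mean of -0.27 ± 0.40. Among the 4 genes, then, Mt1, Mt2 and Mt4 were higher on every array and Mt3 was not, where 20.3% of all genes were. Mt3 and Mt4 were far dimmer, with mean log2 intensities of 7.05 and 7.81, against 15.7 for Mt1 and 15.6 for Mt2.

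Oxidative stress genes, many of them targets of the factor Nrf2, were the most one-sided of the lists of metal and stress genes. Of 15, 9 were higher on every array and none was lower, where over all genes 20.3% and 17.4% were. The median was 0.43, at 0.23, 0.49 and 0.44 on the 3 arrays, and 4 of 15 had an unadjusted p under 0.05, where 15.7% of all genes did. Gclm and Gclc encode the subunits of the enzyme that limits glutathione synthesis. They had 1.77 ± 0.32 and 1.30 ± 0.21, and no array gave either of them less than a 2-fold higher signal. Over all genes, 1.9% were at least 2-fold higher on every array. At the other end were Cat, catalase, at 0.00 ± 0.23 and G6pdx, which feeds NADPH to glutathione recycling, at -0.19 ± 0.59.

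Iron handling genes had a median of -0.07, with 2 of 9 higher and 1 lower on every array and 2 at an unadjusted p under 0.05 (15.7% of all genes). Trf, named above, led them and was followed by Slc40a1, the iron exporter ferroportin, at 0.77 ± 0.36. The lowest were Aco1, the iron regulatory protein, at -0.16 ± 0.33 and Slc25a37, the mitochondrial iron importer, at -0.23 ± 0.26.

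Other P-type ATPases had no gene near Atp7a in this list by brightest probe. Of 17, 1 was higher and 2 lower on every array, the median was -0.10, and 0 had an unadjusted p under 0.05 by limma. The calcium pumps Atp2b1 and Atp2b2 had 0.76 ± 0.99 and 0.56 ± 0.77, and Atp2c2 and Atp2a1 had -0.36 ± 0.20 and -0.42 ± 0.40. Atp2b1 depends on the probe: its second kept probe, A_66_P138001, had log2 ratios of 3.42, 2.66 and 2.38 and was among the 115 probes that passed.

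**Figure D4:**
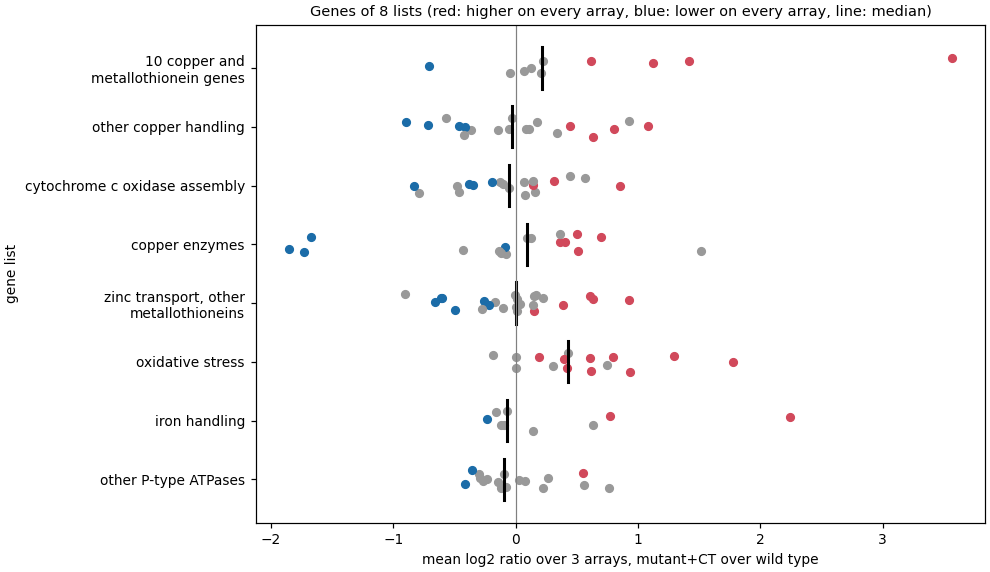
Mean log2 ratio over 3 arrays for each gene of 8 lists, 1 point per gene, with the list's median as a black line; red genes were higher and blue genes lower on every array. Oxidative stress has 9 red and no blue points with a median of 0.43, other copper handling has 4 of each, and Atp7a is the point at 3.57 in the top row.

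Neighbours of Atp7a on the X chromosome were checked by probe position, 5 on each side. Atrx, a chromatin remodeller, had a mean log2 ratio of -0.13, Cox7b, a subunit of cytochrome c oxidase, 0.07, and Tlr13 0.10. Magt1 had 0.60 and Gm11123 0.53. On the far side, Taf9b had 1.17, Fnd3c2 1.48 and the transcript CK031974 1.68. The unnamed probes A_55_P2158281 and A_55_P2156718 had 0.50 and 0.69. None of these 10 reached the 3.57 of Atp7a. Of them 7 were higher and 0 lower on every array, where 20.3% and 17.4% of all genes were. The nearest on either side were Gm11123, at 62.5 kb, which was among the 7, and Tlr13, at 35.8 kb, which was not.

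The genes with ratios most like those of Atp7a were found by Euclidean distance over the 3 arrays, which is a description over 3 points. Ctsj, a placental cathepsin, was nearest at 0.626, with log2 ratios of 3.24, 3.90 and 3.14. Gigyf1 followed at 1.07, Rest, a repressor of neuronal genes, at 1.12, Tmem245 at 1.27 and the unnamed probe A_55_P2054098 at 1.35. For Mt1 the nearest were AK160358 at 0.129, Spindoc at 0.199, 2610034E01Rik at 0.245, XM_001474884 at 0.257 and Gm10777 at 0.285. Mt2 was not among the 5 nearest to Mt1.

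**Figure D5:**
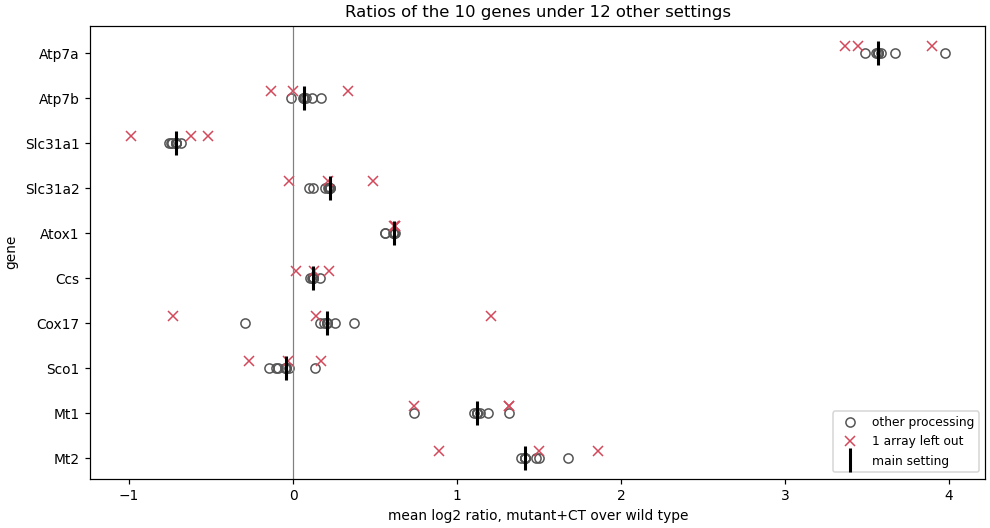
Mean log2 ratio of each of the 10 genes with the main processing (black bar), with other processing (grey circles) and with 1 array left out (red crosses). Atp7a stays between 3.37 and 3.97, and Cox17 moves from -0.73 to 1.20 as arrays are left out.

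The signs of 6 genes were the same in all settings, but many settings could not have turned them. Atp7a, Mt2, Mt1, Atox1 and Slc31a1 each had 1 sign on all 3 arrays. Leaving out an array or adding a dye term only averages ratios of that sign. The filters and Aquantile left these ratios unchanged. Over 12 other settings the mean log2 ratio stayed between 3.37 and 3.97 for Atp7a, 0.89 and 1.86 for Mt2, 0.74 and 1.32 for Mt1, 0.56 and 0.62 for Atox1, and -0.99 and -0.52 for Slc31a1. Ccs, close to 0, stayed above it, from 0.02 to 0.22. Cox17, Atp7b and Sco1 kept their sign in 10 of the 12 and Slc31a2 in 11.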

How the data were processed

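Spot intensity (mean signal, and median local background, in each dye) was read from the deposited scanner files, which come from version 10.7.3.1 of Feature Extraction per the file headers. Their deposited log10 ratio, red over green, was used for directions alone. A deposited table of log2 ratios was made by the authors with limma, as the submitters' processing notes have it; its steps and version are not given in the sources used here. It runs as mutant+CT over wild type, with medians of -0.02, 0.01 and -0.01, and correlates with the ratios computed here at 0.994, 0.996 and 0.998.

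Per the labels' protocols, 1 µg of total RNA was amplified and 300 ng of cRNA per dye were hybridised. Ratios were computed with limma 3.58.1 in R 4.3.3: normexp background correction (offset 50), loess within arrays, control spots at weight 0, and outlier spots (454, 234 and 507 on replicates 1 to 3) set to missing. The filter on dim probes asked for the files' mark of well above background on all 3 arrays in at least 1 of the groups. Of several kept probes, the brightest stands for its gene. Names came from RefSeq (GRCm38.p6) by accession for 30708 of 43020 spots, otherwise from the files; probe positions are the files' mm9. The mean ratio of each feature was set against 0 in limma's moderated test, with Benjamini-Hochberg adjustment over all genes, or all probes, at adjusted p under 0.05. Steps were tested on simulated data. The number of arrays limits the precision.

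The 10 genes and all gene lists were chosen with earlier results of these data known. Named by rule are the 10 genes, the 2 highest and 2 lowest genes of each gene list, the 5 nearest genes on each side of Atp7a, genes within 50 kb of Mt1, the 5 genes most like Atp7a and Mt1, and Dido1. Marker lists other than visceral endoderm are given by counts and medians. The alternatives tried were signals without background subtraction or as processed by Agilent, median centring, Aquantile between arrays, a looser or stricter filter, a trended and robust variance prior, a dye term, the authors' table, averaging a gene's probes, an adjusted p under 0.1, and each array left out in turn.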

Additional observations from a re-analysis of the deposited data

How the results depend on the processing

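The counts of calls over the whole array depended on the processing, and the ratios of the 10 genes less so. Genes with an adjusted p under 0.05, 0 as reported, numbered 290 with Agilent's processed signals, 12 with the filter in both channels and 176 with a trended and robust variance prior, and 298 at an adjusted p under 0.1. With 1 array left out they ranged from 0 to 147, the latter without replicate 1. Atp7a was the one of the 10 called under each of these settings that made calls. Probes past the threshold, 115 as reported, numbered 16 without background subtraction, 739 with Agilent's processed signals, 40 with median centring, 469 with the trended prior, and 0 with no filter or a dye term. With 1 array left out they ranged from 0, without replicate 2 or replicate 3, to 125. The cause was not tested. The Atp7a probe was not among the 16 probes that passed without background subtraction. The number of the 10 at least 2-fold higher on every array was 1 to 2 with 1 array left out, since Mt2 joined Atp7a without replicate 1. Over all 20389 genes that number rose too, because fewer arrays then had to agree. It was 387 as reported and 754, 965 and 502 without replicates 1, 2 and 3. The median ratio of the 10 was 0.22 as reported and ranged from 0.14 with the dye term to 0.55 without replicate 2. The dye term gives no ratio per array, so it has no such count. Quantile normalization of average intensities leaves ratios unchanged by construction. Of the genes' ratios under these settings, 117 moved by less than their SD over arrays, and the 3 that did not are those of Atox1, whose SD is 0.0043. That count is no measure of stability, because many of these settings could not move a ratio that far. Leaving out 1 of 3 arrays or adding a dye term shifts a mean by less than its SD by construction. Changing the filter left the ratios of the 10 genes as they were, and averaging probes did so for genes with 1 kept probe. The ratio within an array is already the paired comparison, so no further pairing was fitted.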
